A study of Mus musculus with 126 samples.

Results

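The genes described here are 33 immediate early, feedback and heat shock genes, taken by symbol from the table of FPKM values per cell. All 33 were found among its 48490 gene identifiers. They were sorted by role into 7 AP-1 genes (Fos, Fosb, Fosl2, Jun, Junb, Jund, Atf3), 7 other early regulators (Egr1, Nr4a1, Ier2, Klf2, Klf4, Klf6, Myc), 7 feedback genes (Dusp1, Zfp36, Zfp36l1, Socs3, Nfkbia, Btg2, Ier3), 8 heat shock genes (Hspa1a, Hspa1b, Hspa8, Hspb1, Hsp90aa1, Hsp90ab1, Hsph1, Dnajb1) and 4 growth and stress genes (Cyr61, Mcl1, Gadd45a, Gadd45b). The cells came from the mouse endolymphatic sac, a blind epithelial pouch of the inner ear that takes part in the balance of endolymph. They were taken at the embryonic age E14.5 and copied 1 per well by Smart-seq2, which reads along whole transcripts and carries no molecular identifiers. The labels give 33 cells as wild type and 93 as Sox9Y440X/+, heterozygous for an allele of the SOXE transcription factor gene Sox9 and called mutant below. No strain, treatment, sex, animal or litter is named, so each genotype counts as 1 sample (n = 1), spreads are over cells, and no test between genotypes was possible.

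Immediate early genes are switched on within minutes of a signal at the cell surface, because the kinases and transcription factors that act on them are already in place. Their protein products, of which FOS and JUN pair to form the factor AP-1, then act on later genes, while feedback genes such as Dusp1 and Zfp36 remove the kinase signal or the short-lived transcripts. Heat shock genes encode chaperones that hold or refold proteins, and some of them are made at all times whereas others answer to heat shock factor. Members of all these groups are also known as genes that the dissociation of a tissue can switch on. Their levels before dissociation were not measured here.

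Sequences just upstream of the start of transcription were read for the members that lead the results below, since early genes are classically switched on through short promoter elements. The RefSeq table of promoters (GRCm38.p6) matched 27 of the 33 members, with Cyr61 under its other symbol Ccn1. Egr1, Hspa8, Hsp90aa1, Hsp90ab1, Ier2 and Myc had no entry. In the 250 bases before the start, both strands were searched for the CArG box bound by serum response factor, for the cyclic AMP response element TGACGTCA, for the AP-1 site TGACTCA or TGAGTCA, and for a pair of heat shock units, GAANNTTC or TTCNNGAA. The 4 motifs do not overlap in the stretches shown, and capitals mark them. Each stretch is given 5′ to 3′ on the strand of its gene, with positions counted back from the RefSeq start.
Zfp36, chr7:28379267-28379296, minus strand, CArG box starting at −58: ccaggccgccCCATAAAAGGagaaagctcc
Btg2, chr1:134079156-134079405, minus strand, cyclic AMP response element starting at −166: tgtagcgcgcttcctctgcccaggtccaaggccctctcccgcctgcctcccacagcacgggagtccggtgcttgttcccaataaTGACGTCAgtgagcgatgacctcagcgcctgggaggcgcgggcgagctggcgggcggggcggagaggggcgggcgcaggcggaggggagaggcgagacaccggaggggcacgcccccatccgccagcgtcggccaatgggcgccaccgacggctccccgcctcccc
Dusp1, chr17:26508523-26508722, minus strand, cyclic AMP response element starting at −143: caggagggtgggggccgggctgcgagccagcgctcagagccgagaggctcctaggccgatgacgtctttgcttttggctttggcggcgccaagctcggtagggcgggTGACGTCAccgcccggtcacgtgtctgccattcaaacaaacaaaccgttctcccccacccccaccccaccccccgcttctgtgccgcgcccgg
Nr4a1, chr15:101266596-101266845, plus strand, none of the 4 motifs: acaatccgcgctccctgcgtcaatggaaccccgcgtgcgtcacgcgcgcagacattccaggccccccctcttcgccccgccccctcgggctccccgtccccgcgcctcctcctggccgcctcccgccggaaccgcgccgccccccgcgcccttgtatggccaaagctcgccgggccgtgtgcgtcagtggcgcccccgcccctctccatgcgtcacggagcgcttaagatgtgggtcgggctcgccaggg
Hspb1, chr5:135887669-135887918, plus strand, heat shock unit pairs starting at −117 and −97: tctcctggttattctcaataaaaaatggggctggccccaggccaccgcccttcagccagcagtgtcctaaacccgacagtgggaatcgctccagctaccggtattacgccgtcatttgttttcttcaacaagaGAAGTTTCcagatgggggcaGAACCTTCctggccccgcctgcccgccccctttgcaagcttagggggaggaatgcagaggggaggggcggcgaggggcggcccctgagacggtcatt

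These stretches are shown because Zfp36 was the member farthest below wild type in the mutant cells, Nr4a1 was correlated with Btg2 and with Dusp1 over cells, and Hspb1 differed between 2 classes of cells in both genotypes. By GENCODE vM21, the Btg2 and Hspb1 stretches overlap no gene and those of Nr4a1 and Dusp1 lie in an intron of a longer transcript of the same gene. The Zfp36 stretch lies in the 5′ untranslated exon of a longer Zfp36 transcript and is cut to 30 bases, and Dusp1 is cut short of such an exon. Within the 250 bases searched, the CArG box was found in 1 of the 27 members, Zfp36, and in 1.47% of 32851 promoters in the RefSeq table. Bases farther upstream were not searched, so a member without a match here may still hold one there. Btg2 and Dusp1 were the 2 members with a cyclic AMP response element, held by 1.55% of all promoters. No member had the AP-1 site in this window, against 4.46% of promoters. A pair of heat shock units stood upstream of 7 members, the heat shock genes Hspa1a, Hspa1b, Hspb1 and Hsph1 and also Fosl2, Jun and Cyr61, against 12.8% of promoters. A match describes letters and does not show that a factor binds there.

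Some facts of the whole table bear on every value below. A gene counts as detected in a cell at 1 FPKM or more, and a level is log2(FPKM + 1), averaged over cells and given ± its SD over them. Sox9 spanned 0 to 82.01 FPKM in wild-type cells (median 10.03) and 0 to 85.9 in mutant cells (median 11.3), which does not check the allele. Wild-type cells listed a median of 5329 genes above 0 (2189 to 6493) and mutant cells 4423 (2035 to 9358). The FPKM values of a wild-type cell summed to between 391800 and 16360000 (median 495390). In mutant cells the sums ran from 60900 to 3767400 (median 451940). Levels, ranges and scores below were not scaled to a common sum, so cells with unlike sums are not on the same scale. Rescaling to a common sum was used only among the alternative settings. All 93 mutant cells and 1 wild-type cell have titles beginning with P9, and the other 32 wild-type cells begin with P10, and what these prefixes mean is not said. A Y-linked transcript was detected in 32 wild-type cells and 0 had Xist, whereas 81 mutant cells had Xist. In 4 mutant-labelled cells a Y-linked transcript was present and Xist was not, so their label is in doubt. Genotype, title prefix and sex-linked expression therefore cannot be told apart in any comparison of the genotypes below. The epithelial gene Epcam was detected in 32 wild-type and 81 mutant cells, and the 8 epithelial markers checked were all detected in some cells of each genotype. Of 8 sac and ear genes checked, Oc90 and Dlx5 were detected in most wild-type cells, and only Dlx5 in most mutant cells. Pax2, Gata3, Foxi1, Slc26a4, Atp6v1b1 and Car12 were each detected in a minority of the cells of each genotype.

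Most of the 33 genes were detected in most cells of the sac. A median of 25 of the 33 genes was detected in a wild-type cell (12 to 29) and of 24 in a mutant cell (8 to 32). In at least 50% of cells, 28 members were detected in the wild type and 26 in the mutant. FPKM is scaled to transcript length, so levels can be set side by side between genes, less surely for those that share sequence with other genes. Among wild-type cells the highest mean levels of log2(FPKM + 1) were those of Hspb1 (9.69 ± 2.58), Hsp90ab1 (9.56 ± 0.82), Hspa8 (9.48 ± 0.49), Fos (9.02 ± 2.09) and Nr4a1 (8.52 ± 2.42). Neighbours in that order lie within each other's SD over cells.

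The constitutive chaperones were the most even members. Hspa8, the chaperone HSC70 that is made at all times, ran from 327 to 1537 FPKM in wild-type cells (median 719) and from 21.6 to 2386 in mutant cells (median 664.5). Hsp90ab1, the constitutive HSP90, was also detected in every cell of both genotypes. By contrast the strictly inducible HSP70 genes Hspa1a and Hspa1b were near silent. Hspa1a was detected in 4 of 33 wild-type cells (12.1%, exact binomial 95% interval 3.40 to 28.2%) and 10 of 93 mutant cells (10.8%, 5.28 to 18.9%), and Hspa1b in 3 (9.09%, 1.92 to 24.3%) and 11 (11.8%, 6.05 to 20.2%). These intervals cover counting error over cells and not the spread between animals. So cells rich in Fos, Atf3 and Nr4a1 transcripts mostly had the main inducible HSP70 genes listed at 0. The 2 HSP70 genes share 60.4% and 62.3% of their 50-base words with other genes' transcripts, chiefly each other, and reads of such words may have been divided between them. Hspa8 shares 45.3% of its words with Gm15459, which was detected in every cell, at medians of 130 FPKM in the wild type and 109 in the mutant. The values of Hspa8 are less certain for that reason.

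**Figure D1:**
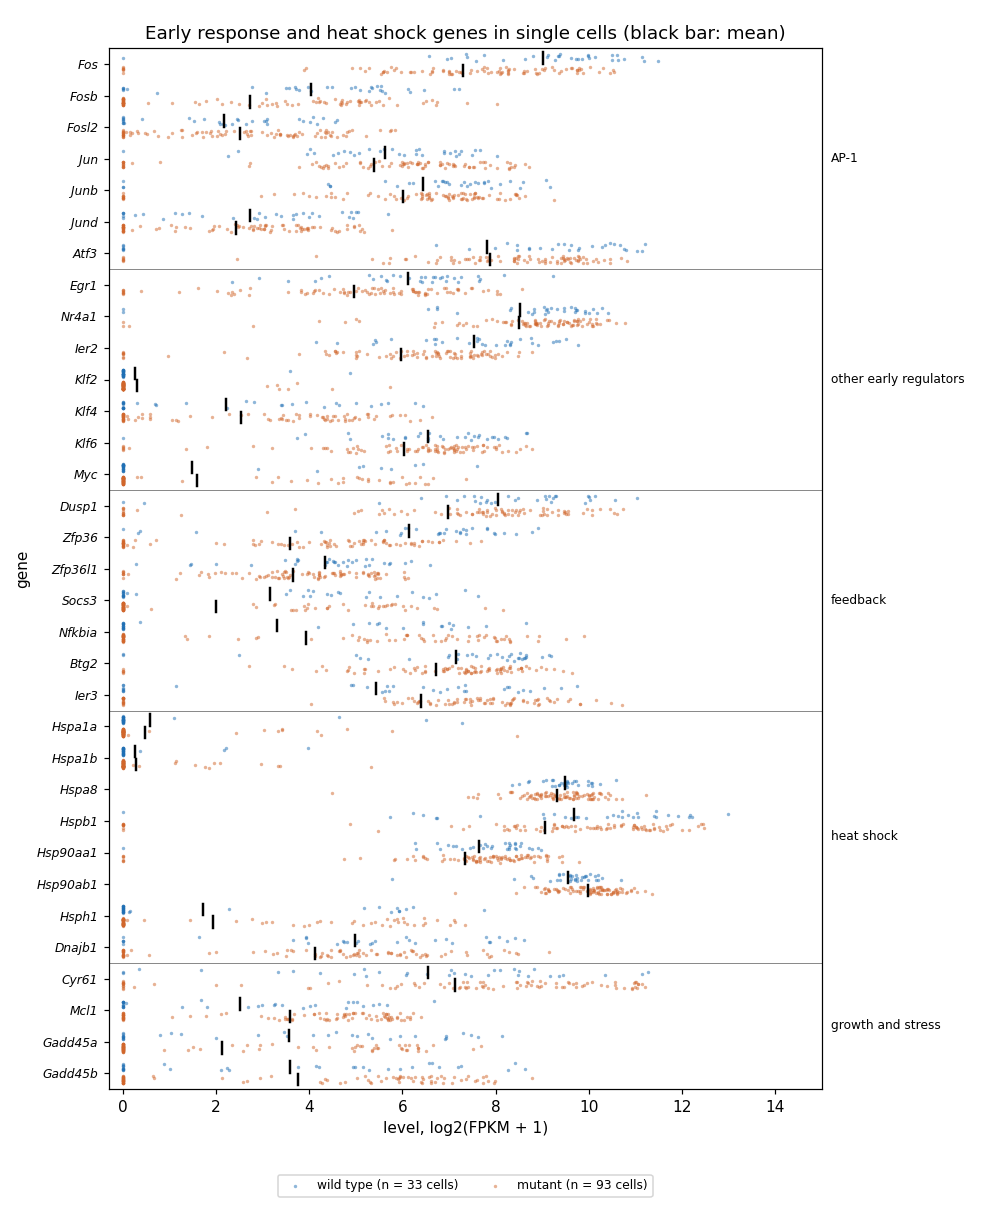
Level of each member in each cell, as log2(FPKM + 1) on the horizontal axis with the members grouped by role on the vertical axis. Blue points are the 33 wild-type cells, orange points the 93 mutant cells and black bars the means, and Hspa8 and Hsp90ab1 show the narrowest clouds while Hspa1a, Hspa1b and Klf2 sit mostly at 0.

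Other members divided the cells into those with and without the transcript. Nfkbia, which encodes the inhibitor that holds NF-kappa-B in the cytoplasm, ran from 0 to 399.7 FPKM in wild-type cells with a median of 17.3. Socs3, a feedback inhibitor of cytokine receptors, reached 1 FPKM in 60.6% (42.1 to 77.1%) of the wild-type cells and in 39.8% (29.8 to 50.5%) of the mutant ones. Klf2 was detected in 6.06% and 7.53% and Myc in 27.3% and 31.2%. Klf2, Hspa1a and Hspa1b fell below the detection filter used for differences, a share of detected cells of 25% averaged over the 2 groups compared. Differences were therefore computed for 30 of the 33 members.

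Between the genotypes, the transcript of the RNA-decay factor ZFP36 stood lowest in the mutant cells, followed by those of Fos and the early gene Ier2. Differences are mutant minus wild type on the log2(FPKM + 1) scale, less the median difference of −0.33 over all 6180 compared genes, and are called relative differences. A relative difference of at least 1 log2 unit in size is called past the threshold, with no test. Lower in the mutant cells past this threshold were 4 of 30 members, Zfp36, Fos, Ier2 and Gadd45a, where 6.8% of all compared genes were. Higher were 2 members, Mcl1 and Ier3, where 3.24% of all compared genes were. These are counts of a few genes, and no test was made of the gap to either share. The median relative difference of the 30 members was 0.04 and 16 lay above 0, so the members as a whole did not stand apart from the median of all compared genes.

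Zfp36 (ENSMUSG00000044786.6, mm10 chr7:28376784-28380253) encodes tristetraprolin, which binds AU-rich elements and speeds the decay of early transcripts. Its values were 0, 117 and 479.6 FPKM (lowest, median, highest) in wild-type cells and 0, 19.5 and 204.5 in mutant cells. The ranges overlap, but most wild-type cells lie high and most mutant cells low. Mean levels were 6.15 ± 2.40 and 3.58 ± 2.47, a relative difference of −2.23, and when each mutant cell was paired with each wild-type cell, 17.7% of the pairs had more Zfp36 in the mutant one, with ties shared. Detection reached 90.9% (75.7 to 98.1%) of the wild-type cells, against 72.04% (61.8 to 80.9%) of the mutant ones. Its locus overlaps Gm44710 on the other strand, and strand is not known for these values.

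Fos (chr12:85473890-85477273), the partner of JUN in AP-1, was detected in nearly every cell of both genotypes and differed in amount. It ran from 0 to 2879 FPKM in wild-type cells (median 662) and from 0 to 1489 in mutant cells (median 225). Mean levels were 9.02 ± 2.09 and 7.29 ± 2.47, a relative difference of −1.39, and the mutant cell was higher in 24.7% of pairs. Ier2 (chr8:84661331-84662852), a small nuclear protein gene of the same early wave, was detected in all 33 wild-type cells at 16.8 to 871 FPKM (median 209.6). In mutant cells it ran from 0 to 436 FPKM (median 102.5), with a relative difference of −1.24 and the mutant cell higher in 26.6% of pairs. Gadd45a (chr6:67035096-67037457), a stress and DNA damage gene, was found in 69.7% (51.3 to 84.4%) of the wild-type cells and in 43.01% (32.8 to 53.7%) of the mutant ones, with a relative difference of −1.12.

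The members just inside and just outside the threshold show that it cuts a continuous range. Fosb, the other FOS family gene of the first wave, was at −0.98, Egr1 at −0.83, Socs3 at −0.82 and Dusp1 at −0.74. Above the median stood Nfkbia at 0.97, the matricellular signal gene Cyr61 at 0.91 and Hsp90ab1 at 0.75. The JUN side of AP-1 lay near the median, with Jun at 0.11, Junb at −0.10 and Jund at 0.04. Jun, Junb and Jund each overlap another gene, Junos, Prdx2 and Gm11175 respectively, and their values are less certain for that reason.

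Mcl1 and Ier3, both known for guarding cells against death, were the 2 members higher in the mutant cells. Mcl1 (chr3:95658788-95663176) ran from 0 to 102 FPKM in wild-type cells (median 6.47) and from 0 to 83.55 in mutant cells (median 19.9), a relative difference of 1.39 with the mutant cell higher in 63.9% of pairs. Ier3 (chr17:35821684-35822923) had medians of 86.55 and 173 FPKM and a relative difference of 1.31, with the mutant cell higher in 61.1% of pairs. Their ranges overlap nearly in full. Both calls depend on the scale: with a pseudocount of 10 Mcl1 was at 0.64 and Ier3 at 0.85, and on the log2 scale of mean FPKM at 0.84 and 0.73.

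**Figure D2:**
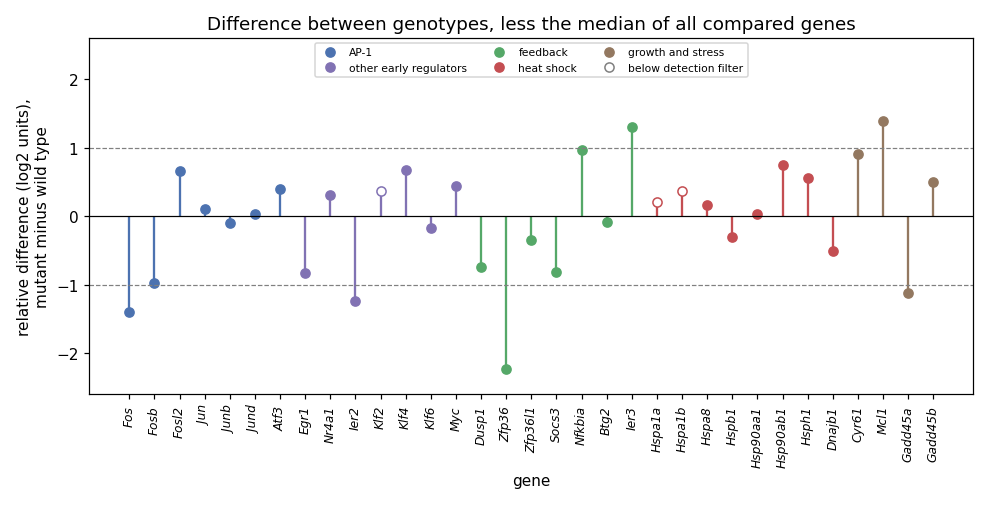
Relative difference of each member on the vertical axis, mutant minus wild type in log2 units less the median of all compared genes, with members in the order of their roles. Dashed lines mark 1 log2 unit either way; Zfp36, Fos, Ier2 and Gadd45a lie below the lower line, Mcl1 and Ier3 above the upper line, and open points are members under the detection filter.

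A score is the mean log2(FPKM + 1) over the members of a group in a cell, and the differences below still contain the shift of −0.33 of all compared genes. The AP-1 score was 5.41 ± 1.22 in wild-type cells and 4.89 ± 1.18 in mutant cells, and the mutant cell was higher in 34.6% of pairs. The feedback score was 5.37 ± 1.38 and 4.76 ± 1.44, with the mutant cell higher in 37.05% of pairs. Heat shock scores were 5.49 ± 0.73 and 5.31 ± 0.81, and those of growth and stress genes 4.06 ± 1.78 and 4.15 ± 1.498. Every difference of these scores was smaller than their SD over cells. Without the 4 mutant-labelled cells of doubtful label, 4 members were lower and 3 higher past the threshold, against 7.28% and 3.43% of all compared genes in the same cells. Among cells with Epcam detected, 7 members were lower and 2 higher, against 6.28% and 4.08%.

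The endolymphatic sac holds cells rich in Aldh1a1 and cells rich in Aldh1a3, which encode 2 retinaldehyde dehydrogenases that make retinoic acid. A cell was called Aldh1a1 dominant or Aldh1a3 dominant where log2(FPKM + 1) of that gene exceeded the other's by at least 1 unit. Of the wild-type cells 14 were Aldh1a1 dominant, 16 Aldh1a3 dominant and 3 neither, and of the mutant cells 40, 36 and 17. These classes are ranges of 2 measured genes, not named cell types, and they use no value of the members. The 16 wild-type Aldh1a3 dominant cells include the 1 wild-type cell without Epcam, which had all 8 epithelial markers at 0. Fos, Jun, Atf3, Nr4a1, Dusp1, Zfp36, Btg2, Ier3 and Hspb1 were also at 0 in that cell, which lowers their class means. In the same cell 12 members were detected. Aldh1a1 dominant cells listed more genes, with medians of 5664 against 4958.5 in the wild type and 4694.5 against 4264.5 in the mutant. The part of this gap in the differences below was not tested beyond cells of 3000 to 5000 listed genes.

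Within the wild type, 4 of 7 feedback genes and 2 of 4 growth and stress genes stood higher in the Aldh1a1 dominant cells, while Egr1 and Ier2 stood higher in the Aldh1a3 dominant cells. Past 1 log2 unit, relative to the median over 6775 compared genes, 9 of 30 members were higher in Aldh1a1 dominant cells, against 15.9% of all compared genes, and 4 were lower, against 14.49% (982 genes), a share close to that of the members. The 9 were Atf3 (4.28), Nfkbia (3.45), Hspb1 (3.01), Gadd45a (2.57), Ier3 (2.23), Zfp36 (1.83), Cyr61 (1.81), Btg2 (1.51) and Klf6 (1.20). The 4 were Socs3 (−1.51), Ier2 (−1.48), Egr1 (−1.44) and Hsph1 (−1.32), with Fos just outside at −0.97. In the mutant cells, 4 members were higher in Aldh1a1 dominant cells, against 11.7% of 5766 compared genes, and 5 were lower, against 6.82%. The higher ones were Nfkbia (2.49), Jun (1.98), Klf6 (1.77) and Hspb1 (1.29), and the lower ones Zfp36l1 (−1.99), Socs3 (−1.40), Egr1 (−1.03), Fos (−1.02) and Hsph1 (−1.01).

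Nfkbia, Hspb1 and Klf6 were past the threshold in the Aldh1a1 direction in both genotypes, which is 3 of the 9 and 3 of the 4. Of the 5371 genes compared in both genotypes, 5.42% were higher in both, against 10% of the 30 members. Socs3, Egr1 and Hsph1 were past it in the Aldh1a3 direction in both, 3 of the 4 and 3 of the 5, which is again 10% of members against 3.09% of all genes. The mutant calls of these 3 varied with the setting, and Egr1 was past it in 3 of 8 alternative settings (weakest −0.55), Hsph1 in 6 of 8 and Socs3 in 7 of 8. In the wild type Egr1 was past it in 8 of 8, Socs3 in 7 of 8 and Hsph1 in 5 of 6. In each of these wild-type totals, 1 alternative left out only mutant-labelled cells and could not change the value. The sign was the same in both genotypes for 66.7% of members and 63.9% of all genes, so the members' shared direction was close to that of other genes.

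Hspb1 (chr5:135887919-135889563), the small heat shock protein HSP27 that binds unfolding proteins and actin, differed between the classes in both genotypes. In wild-type Aldh1a1 dominant cells it ran from 715 to 8177 FPKM (median 2125), and in wild-type Aldh1a3 dominant cells from 0 to 4758 (median 520.5). The value of 0 was that of the wild-type cell without Epcam. The mutant values were 304 to 5684 (median 2120) and 28.4 to 2372 (median 664). In both genotypes the Aldh1a1 dominant cells crowd at the top, and pairing the classes cell by cell put the Aldh1a1 dominant cell higher in 91.5% of wild-type pairs and 81.9% of mutant pairs. The stretch upstream of Hspb1 printed above holds its 2 pairs of heat shock units. Of the 50-base words of Hspb1, 51.7% also occur in the pseudogene Hsp25-ps1, whose own median was 0.59 FPKM in the wild type and 0 in the mutant.

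Nfkbia (chr12:55489410-55492647) differed by detection. It was detected in 11 of 14 and 5 of 16 wild-type cells, 78.6% (49.2 to 95.3%) of Aldh1a1 dominant and 31.2% (11.02 to 58.7%) of Aldh1a3 dominant cells. The mutant shares were 77.5% (61.5 to 89.2%) and 41.7% (25.5 to 59.2%). Klf6, a Krüppel-like factor gene of the early response, had medians of 211.7 and 72.65 FPKM in the wild type and 142 and 60.3 in the mutant. Klf6 was higher in the Aldh1a1 dominant cell in 76.3% of pairs in the wild type and 84.4% in the mutant, with overlapping ranges.

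Fos, Egr1 and Ier2 went the other way. Fos medians were 529.6 FPKM in wild-type Aldh1a1 dominant cells and 1080 in Aldh1a3 dominant cells, and 167 and 293 in the mutant. Egr1, a zinc finger factor gene driven by serum response factor, had medians of 49.3 and 122 in the wild type and 28 and 45.2 in the mutant. For Ier2 these were 129 and 303, and 67.3 and 105.6. In the wild type an Aldh1a1 dominant cell was higher in 22.3% of pairs for Fos, 22.3% for Egr1 and 23.7% for Ier2, and in the mutant in 36.2%, 38.5% and 40.1%. The ranges overlap in every case, and the order of the medians is the same in both genotypes.

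**Figure D3:**
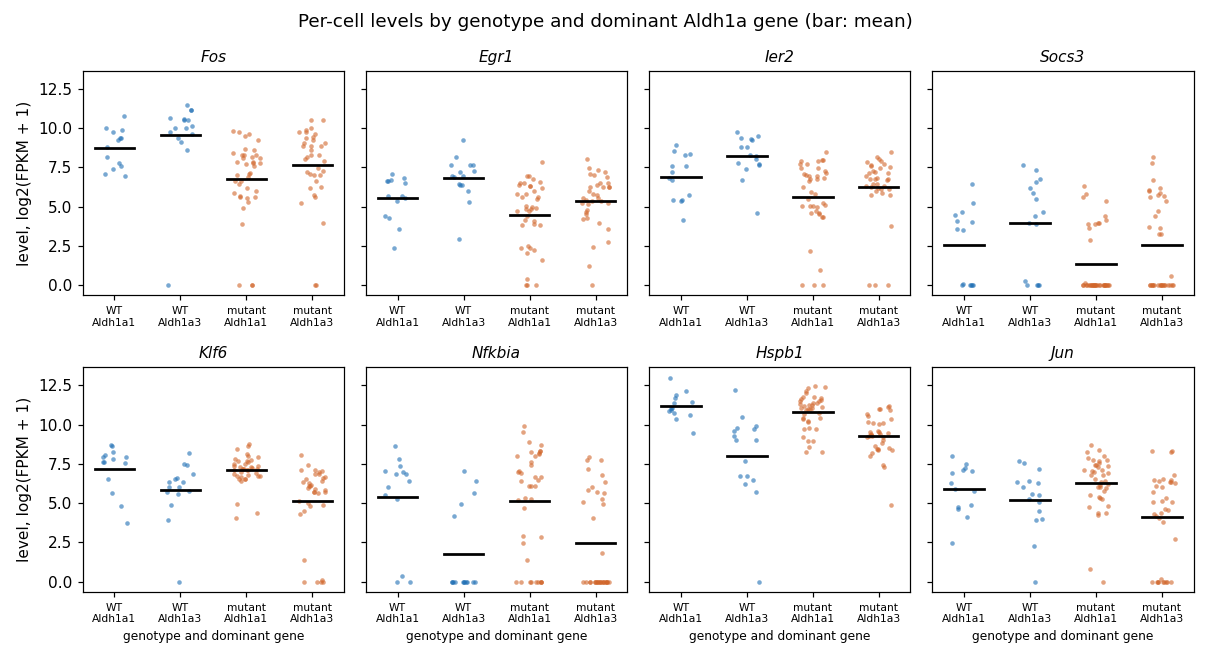
Level of 8 members in each cell, as log2(FPKM + 1) on the vertical axis, by genotype and dominant Aldh1a gene on the horizontal axis, with bars at the means. Fos, Egr1, Ier2 and Socs3 have higher means in Aldh1a3 dominant cells, Klf6, Nfkbia, Hspb1 and Jun in Aldh1a1 dominant cells, in both genotypes.

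Several members differed between the classes in 1 genotype and not, or not to that extent, in the other, and these differences between genotypes were not tested. Atf3, a stress-induced factor gene that pairs with JUN proteins, was detected in all 14 wild-type Aldh1a1 dominant cells at 303.5 to 2086 FPKM but in 10 of 16 Aldh1a3 dominant cells, where it ran from 0 to 2249 (median 211). Mutant cells of both classes had it at a similar level, with medians of 405 and 447 FPKM and a relative difference that rounds to 0.00 in size. Cyr61 was at 1.81 in the wild type and −0.93 in the mutant, and Btg2, an inhibitor of cell division, at 1.51 and −0.51. Zfp36l1, a relative of Zfp36 that also speeds mRNA decay, differed mainly in the mutant, with medians of 7.50 FPKM in Aldh1a1 dominant and 26.9 in Aldh1a3 dominant mutant cells against 22.4 and 25.55 in the wild type. An Aldh1a1 dominant mutant cell was higher in 11.7% of pairs. Jun likewise had mutant medians of 101.5 and 28.5 FPKM.

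**Figure D4:**
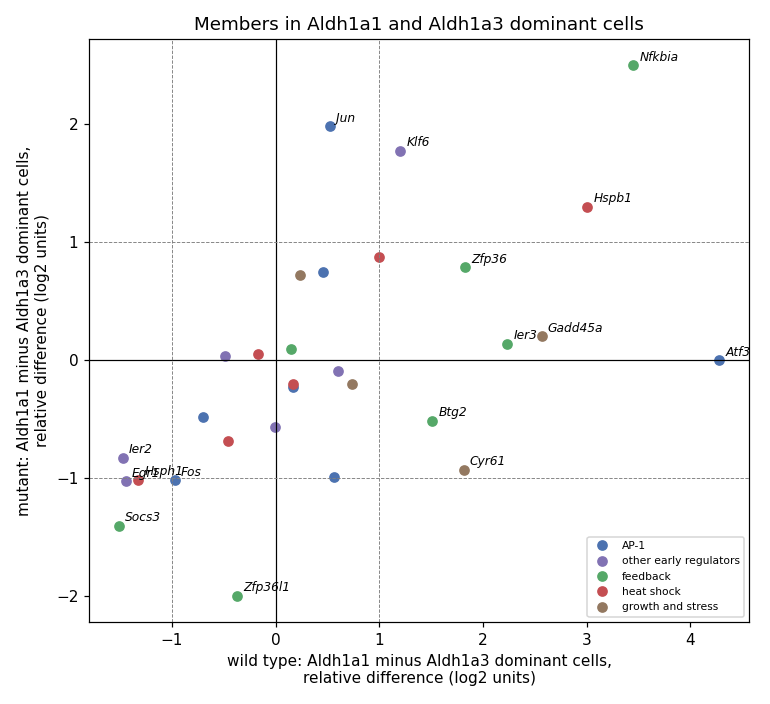
Relative difference of each compared member between Aldh1a1 and Aldh1a3 dominant cells in log2 units, for the wild type on the horizontal axis and the mutant on the vertical axis, coloured by role. Dashed lines mark 1 log2 unit; Nfkbia, Klf6 and Hspb1 lie past them at the upper right, Socs3, Egr1 and Hsph1 at the lower left, and Atf3 lies far right near a mutant difference of 0.

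The genotype differences of Zfp36 and Fos held within each class. Comparing genotypes among Aldh1a1 dominant cells only (40 mutant and 14 wild type) and among Aldh1a3 dominant cells only (36 and 16), Zfp36 was at −2.55 and −1.54 and Fos at −1.57 and −1.55. Ier2 was at −0.90 and −1.58 and Mcl1 at 1.30 and 0.79, on the same side of 0 in both. Gadd45a was at −2.12 in the Aldh1a1 dominant cells and 0.21 in the Aldh1a3 dominant cells, and Ier3 at 0.12 and 2.18. Atf3 was at −1.19 and 3.06. These differences between the classes were not tested. In the Aldh1a1 dominant cells 5 members were lower and 2 higher past the threshold, against 9.63% and 9.3% of 6514 compared genes. Among the Aldh1a3 dominant cells 6 were lower and 9 higher, against 12.6% and 8.43% of 6077.

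Some early and heat shock transcripts were scarcer in the cells without Epcam and others were not. Epcam was not detected in 1 wild-type and 12 mutant cells, and in the mutant ones the summed log2(FPKM + 1) of 8 mesenchymal markers had a median of 33.6 (0 to 51.7), against 0 (0 to 19.8) in mutant cells with Epcam. These cells were not left out above. Hspb1 was detected in 3 of the 12 (25%, 5.49 to 57.2%) and in all 81 mutant cells with Epcam (95.5 to 100%). Btg2 had a median of 14.8 FPKM in the 12 cells and 177 in the 81, Nr4a1 of 68.05 and 569, and Atf3 of 114 and 425. Fos, Egr1, Ier2 and Ier3 did not share this pattern, with medians of 344 and 207, 44.6 and 40.7, 167 and 87.3, and 189 and 161 FPKM. The AP-1 score had a median of 5.12 in the 12 cells and of 5.12 in the 81, with means of 4.16 ± 1.79 and 5.001 ± 1.03. Among the 6 cells with the lowest mean over all members, 5 had Epcam at 0. The single wild-type cell without Epcam had an AP-1 score of 0.81, the lowest of its genotype, with Fos listed at 0 and Col3a1 at 329 FPKM. Whether the kind of cell accounts for the low scores was not tested.

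Across cells of a genotype the members varied together only weakly, apart from a small number of pairs. Spearman's rho was computed over cells for all 435 pairs of the 30 compared members, as a description, since cells share libraries made together and pairs share genes. Its median over all pairs was 0.08 in the wild type and 0.07 in the mutant, against 0.02 and 0.03 over all compared genes. Within AP-1 it was 0.14 and 0.11, within feedback genes 0.07 and 0.16, within heat shock genes 0.06 and 0.09. Between AP-1 and feedback genes it was 0.09 and 0.18, and between AP-1 and heat shock genes 0.05 and 0.04. In none of these sets did most pairs reach a rho of 0.3.

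A rho of 0.3 or more in both genotypes was found for 17 of the 435 pairs, 3.91%, against 0.155% of all pairs of compared genes. The shares were higher for widely detected genes. Among genes detected in at least 75% of cells the shares were 8.19% of 171 member pairs and 1.37% of all pairs. No member pair was at −0.3 or below in both genotypes. With cells lacking Epcam left out, 13 pairs met the rule, 2.99%, against 0.139% of all pairs, and 11 of them were among the 17.

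The highest of these pairs was Nr4a1, an orphan nuclear receptor gene of the early response, with Btg2, at 0.71 in the wild type and 0.51 in the mutant. It stood at 0.68 and 0.34 among cells with Epcam. Within the Aldh1a1 dominant and Aldh1a3 dominant classes it was at 0.58 and 0.74 in the wild type and at 0.18 and 0.40 in the mutant. Nr4a1 was also paired with Dusp1, a phosphatase gene that switches off MAP kinases, at 0.59 and 0.30, but at 0.21 in mutant cells with Epcam and at 0.42 and 0.07 in the mutant classes. Dusp1 with Btg2 was at 0.44 in the wild type and 0.16 in the mutant. Dusp1 and Btg2 are the 2 members with the cyclic AMP response element printed above, whereas the Nr4a1 stretch holds no exact match to any of the 4 motifs. Dusp1 lies in a deposited locus that spans several other genes, and reads of these may enter its value.

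A further set joined Fos, Egr1 and Ier2 to each other, and Fosb to Fos alone. Fos with Egr1 was at 0.51 in the wild type and 0.63 in the mutant, and Egr1 with Ier2 at 0.62 and 0.40. Fos with Ier2 stood at 0.48 and 0.39 and Fos with Fosb at 0.39 and 0.35. Within the classes Fos and Egr1 were at 0.64 and 0.73 in wild-type and mutant Aldh1a3 dominant cells, but at −0.32 and 0.38 in the Aldh1a1 dominant cells, of which the wild type had 14. In Aldh1a1 and Aldh1a3 dominant cells, Fos with Ier2 was at 0.02 and 0.43 in the wild type and 0.39 and 0.15 in the mutant. For Fos with Fosb these were 0.12 and 0.27, and 0.44 and 0.20, and for Egr1 with Ier2 0.56 and 0.46, and 0.43 and 0.27. Other pairs of the 17 were Klf6 with Hspb1 at 0.65 and 0.47 and Atf3 with Klf6 at 0.67 and 0.34. Ier3 with Cyr61 was at 0.51 and 0.44, and Zfp36 with Hspb1 at 0.54 and 0.40. Among mutant Aldh1a1 dominant and Aldh1a3 dominant cells, Klf6 with Hspb1 was at 0.03 and 0.30, Atf3 with Klf6 at 0.16 and 0.32, Ier3 with Cyr61 at 0.32 and 0.51, and Zfp36 with Hspb1 at 0.52 and 0.21.

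**Figure D5:**
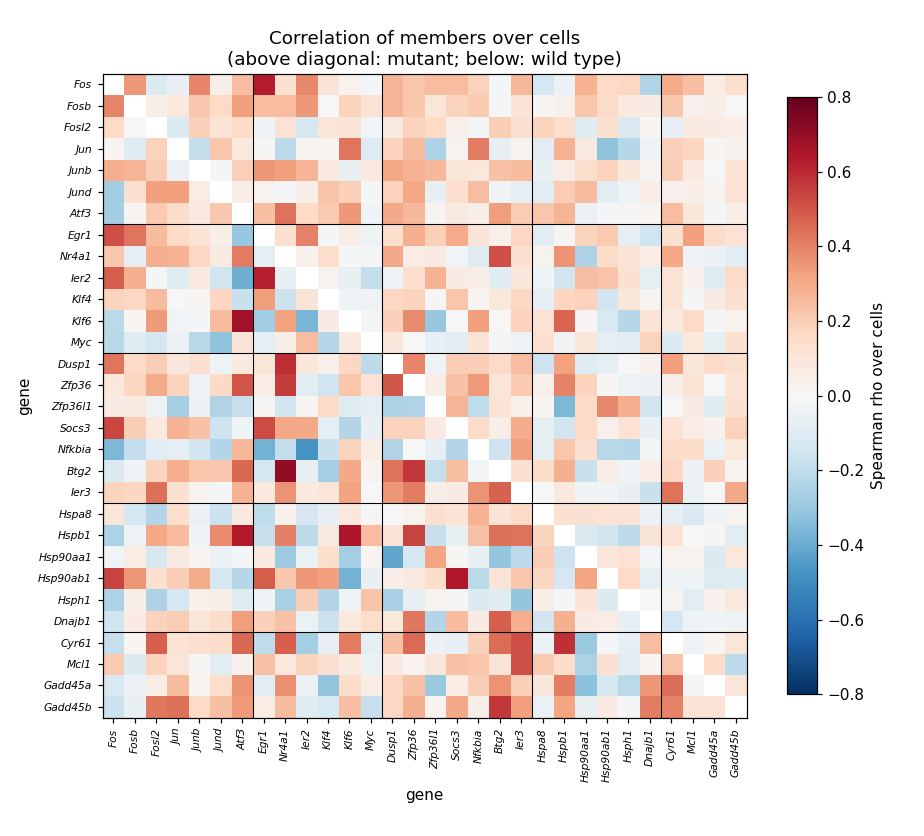
Spearman's rho over cells for each pair of the 30 compared members, with wild-type cells below the diagonal and mutant cells above it, on a colour scale from blue (negative) to red (positive). Lines divide the roles; Fos with Egr1 and Nr4a1 with Btg2 are red on both sides, while most of the field is pale.

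The scores of whole roles were related to each other unevenly in the 2 genotypes. AP-1 and feedback scores had a rho of 0.25 over 33 wild-type cells and 0.57 over 93 mutant cells. AP-1 and heat shock scores had 0.49 and 0.10, and AP-1 and other early regulators −0.03 and 0.48. The number of listed genes moved with these scores in the mutant, where its rho was 0.27 with AP-1 and 0.35 with heat shock, and little in the wild type, at −0.03 and 0.19. How far that number accounts for the correlations of scores was not tested. Ranks adjusted for it were used only for pairs of single members, where the median rho was 0.08 in the wild type and 0.07 in the mutant.

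Genes outside the list that followed the AP-1 score most closely, by the mean rho of both genotypes among 6148 genes, were Pyy (0.57 in the wild type and 0.37 in the mutant), Gadd45g (0.61 and 0.21), Ifrd1 (0.46 and 0.32) and Mmp23 (0.47 and 0.31). Pyy encodes the hormone peptide YY. Others near the top were Pdia3, Cybrd1, Tmem59, Tmem160, Kif26b, Pip4k2c and AU021092. A mean rho can rest mostly on 1 genotype, as for Tmem160 (0.58 in the wild type and 0.17 in the mutant) and AU021092 (0.57 and 0.16). For the heat shock score they were Anxa1 (0.57 and 0.28), Serpinb6b (0.46 and 0.38), Gtf2f2 (0.55 and 0.27) and Ghitm (0.49 and 0.32). Rere, F11r, Cystm1, Rap1a, Tti2, Rsf1, Oser1 and Cog6 followed, of which Tti2 was at 0.70 in the wild type but 0.07 in the mutant. All of the genes named lie above the 99th percentile of their score, a mean rho of 0.31 for AP-1 and 0.32 for heat shock, which is how such a ranking must look at its end.

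Genes of the same pathways outside the list were read from 3 lists, against shares of all compared genes of 3.24% higher and 6.8% lower in the mutant. Of 28 further early genes 19 were compared between genotypes, and 6 were higher in the mutant cells past the threshold (Cebpb, Nr4a3, Per1, Mafk, Nr4a2 and Errfi1) and 1 lower, Ppp1r15a. Errfi1, a feedback inhibitor of the EGF receptor, was at 2.92, and Ppp1r15a, a phosphatase subunit gene of the stress response, at −1.36. The median of this list was 0.60, against 0.04 for the 30 members. Of 19 upstream kinases and factors 11 were compared and 2 were higher, Mkl2 and Stat3, the latter at 2.12. The lowest was the MAP kinase kinase gene Map2k1 at −0.96. Of 24 other chaperones 20 were compared, with Hspa9 and Serpinh1 higher and Cryab and Hspe1 lower. Serpinh1, the collagen chaperone HSP47, was at 1.74, and Cryab, a small heat shock protein like Hspb1, at −2.44 and detected in 93.9% of the wild-type cells against 77.4% of the mutant ones.

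Between the Aldh1a classes the same lists were read against 15.9% of all compared genes higher in Aldh1a1 dominant cells and 14.49% lower in the wild type, and 11.7% and 6.82% in the mutant. In the wild type 6 further early genes were higher in Aldh1a1 dominant cells, Sgk1, Csrnp1, Ppp1r15a, Dusp5, Trib1 and Ctgf, the last at 3.58, and 2 were lower, Nr4a2 and Odc1. Ctgf encodes a matricellular protein of the same family as Cyr61. In the mutant cells 1 was higher, Cebpb at 1.32, and 1 lower, Rhob at −1.12. Map2k1 was higher in the Aldh1a1 dominant cells past the threshold in both genotypes, at 2.01 in the mutant. Rela, which encodes the NF-kappa-B subunit that the product of Nfkbia holds back, was at 2.22 in the wild type.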

How the data were processed

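The authors deposited 1 table of FPKM values per gene and cell. HISAT2, Cufflinks, HTSeq, SAMtools 0.1.18 and build mm10 appear in the submitters' processing notes without a role or order. Annotation release, strand and filters were not given in the sources used here. FPKM keeps no read number, so depth is unknown and the count of genes above 0 stands in for it. Of 48490 identifiers, 49 stood on several identical rows, Junb among them, and were used once. Values were log2(FPKM + 1). Genes were compared at a detected share (1 FPKM) of 25% averaged over both groups, and differences were centred on their median. No doublet caller was run and no cell removed. With 1 sample per genotype no test was made. Correlations are Spearman's, and shares carry exact binomial (Clopper-Pearson) 95% intervals (Python 3.11.15, pandas 2.3.3, numpy 2.4.6, scipy 1.17.1). The code was tested on simulated data. Members, lists and thresholds were chosen with earlier results of these data known. All 33 members were examined, and those named were past 1 log2 unit, just outside it or in the correlated pairs. Alternatives varied the pseudocount, scaling, filter, cells and dominance margin. The 10 members whose span overlaps another gene, and Hspa8, Hspb1, Hsp90aa1, Hspa1a and Hspa1b, which share sequence with copies, are less certain. An item among the genes that followed the AP-1 score is not reported here.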

Additional observations from a re-analysis of the deposited data

How the results depend on the processing

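Counts, scores and medians gave 183 values unchanged under an alternative and 15 that moved, all of them counts. Counts were judged by a fixed ratio of the larger to the smaller value. Scores and medians were judged by their spread over cells, members or pairs. Single-gene values numbered 829 unchanged, 5 moved and 1 reversed. Their tolerance was the gene's SD over the mutant or the Aldh1a1 dominant cells, which often exceeds the threshold of 1 log2 unit. Ier3 between genotypes was at 1.31 and at 0.12 among Aldh1a1 dominant cells, and counted as unchanged beside an SD of 3.16. The 829 therefore does not measure how well the calls past the threshold held. The cause of the moves was not tested except where the construction shows it. In brackets after each count stands the share of all compared genes past the threshold in the same direction and setting. The number of members lower in the mutant, 4 (6.8%), became 8 (1.97%) with no filter on low values, 7 (6.28%) with cells lacking Epcam left out and 8 (13.2%) among cells with 3000 to 5000 listed genes, of which 12 were wild type and 61 mutant. The number higher, 2 (3.24%), became 9 (11.8%) with a pseudocount of 0.1, 0 (0.21%) with a pseudocount of 10 and 0 (5.03%) on the log2 scale of mean FPKM. It was 4 (5.25%) with cells rescaled to 1000000, 4 (5.38%) also without the feature AC155839.1, 1 (0.146%) with no filter, 6 (11%) among cells with 3000 to 5000 listed genes and 9 (8.43%) among Aldh1a3 dominant cells. Both shares with no filter are over all 48490 identifiers instead of 6180. A gene listed at 0 in nearly every cell can hardly reach the threshold, so these shares cannot be set against the members' counts. Zfp36 and Fos were past the threshold in 12 of 12 alternatives, Ier2 in 11, Gadd45a in 10, Mcl1 in 9 and Ier3 in 8. Gadd45a reversed to 0.21 among Aldh1a3 dominant cells. By Aldh1a class, the 4 wild-type members lower in Aldh1a1 dominant cells (14.49%) became 7 (25.6%) among cells with 3000 to 5000 listed genes. In the mutant the 4 higher (11.7%) became 8 (20.6%) with a pseudocount of 0.1, and the 5 lower (6.82%) became 8 (16.4%) with a pseudocount of 0.1 and 1 (0.937%) with a pseudocount of 10. No paired analysis was possible because cells carry no replicate number shared between the genotypes. The settings by Aldh1a class, without AC155839.1 and for pairs with Epcam were chosen after seeing the data. Unknown depth limits the scarce members most, since a value of 0 can be a transcript that was not captured.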
